A study of Mus musculus with 12 samples.

Results

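The miRNAs that mark white blood cells and resident liver macrophages were followed through 2 days in mouse liver. They were taken by name from the probe annotation of each array (mmu-miR-142-3p, mmu-miR-142-5p, mmu-miR-223, mmu-miR-146a, mmu-miR-146b, mmu-miR-150 and mmu-miR-155, without star forms), and 7 of the 650 miRNA entries on the array met this rule. The scanner software called 4 of them detected on all 12 arrays: miR-142-3p, miR-142-5p, miR-223 and miR-146a. It called miR-146b, miR-150 and miR-155 detected on 0 arrays. Thus 4 of the 7 were among the 139 entries that were tested, which were those detected on at least 6 arrays.

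The study asked how liver miRNAs behave over the day. Adult mice, of a strain and sex that the labels do not give, had unrestricted food and water and lights that were on for 12 h and off for 12 h. Livers were taken 4 h apart from zeitgeber time (ZT, hours after a lights-on) 18 to 62, and equal amounts of RNA from 2 livers made the single pool hybridised at each time. The dark arrays were ZT18, ZT22, ZT38, ZT42, ZT46 and ZT62. The light arrays were ZT26, ZT30, ZT34, ZT50, ZT54 and ZT58. Cycle 2 held the 6 arrays from ZT42 to ZT62, and cycle 1 the 6 arrays from ZT18 to ZT38, so that each of 6 clock times had 1 array in each cycle. The labels name no treatment and no genetic change. Whether pools taken 24 h apart came from separate litters or cages is not given. The p-values rest on the spread between arrays, each a pool of 2 livers at another time, and not between mice. With 1 pool per time, that spread also holds any difference in time, cycle or array slide that a test does not model. The permutation tests treat the 12 arrays as exchangeable.

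A miRNA is a short RNA that guides Argonaute proteins to messenger RNAs carrying a match to its seed, the stretch near its 5′ end, and lowers their output. Blood-forming cells carry a set of miRNAs that hepatocytes largely lack, so in liver these RNAs are often used as markers of Kupffer cells, the resident macrophages, and of neutrophils and lymphocytes in the sinusoids. miR-142 is made throughout the blood lineages, and its 3p arm has been reported to repress the clock gene Bmal1. miR-223 belongs to neutrophils and other myeloid cells, miR-150 to mature lymphocytes, where it represses Myb. miR-146a and miR-146b are induced by NF-κB and repress its upstream signalling proteins Traf6 and Irak1. miR-155 is cut from the transcript of the Bic gene (Mir155hg) in activated macrophages and lymphocytes and represses Socs1 and Inpp5d. In whole liver, fewer cells of a type and less RNA per cell cannot be told apart.

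The mature sequences show which entries could act on, or be measured as, the same RNAs. They come from RefSeq (GRCm38.p6, a build used for these sequences alone), where 6 of the 7 names matched. The capitals mark the seed, bases 2 to 8 from the 5′ end.
miR-142-3p: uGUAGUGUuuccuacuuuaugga
miR-142-5p: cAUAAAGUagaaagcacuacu
miR-223: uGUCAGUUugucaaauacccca
miR-146a: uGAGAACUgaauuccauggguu
miR-146b: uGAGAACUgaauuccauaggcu
miR-155: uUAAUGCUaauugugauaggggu
RefSeq places them at chr11:87756903-87756925 (plus strand), chr11:87756867-87756887 (plus), chrX:96242884-96242905 (plus), chr11:43374435-43374456 (minus), chr19:46342790-46342811 (plus) and chr16:84714143-84714165 (plus), in the order printed. Only miR-146a and miR-146b shared a seed with each other. No further entry among the 1679 mature mouse miRNAs in the RefSeq table had that seed, and no other entry had the seed of miR-142-3p, miR-142-5p, miR-223 or miR-155. The sequences of miR-146a and miR-146b were the same at 20 of 22 positions. Counted from the 5′ end of miR-146a, the substitutions in miR-146b were G18A and U21C, both outside the seed.

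Both arms of miR-142 come from 1 hairpin, which is why they are compared with each other further on. The hairpin, chr11:87756864-87756927 on the plus strand, is printed with the 5p arm and then the 3p arm in capitals.
Mir142 hairpin: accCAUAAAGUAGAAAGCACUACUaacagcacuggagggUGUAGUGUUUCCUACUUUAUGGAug

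The arrays held 611 mouse and 39 herpesvirus entries. The number detected per array ran from 132 to 162, with 112 entries detected on all 12 arrays and 427 on none. A value is a spot intensity after background subtraction by the scanner software, averaged over the spots of a probe and scaled so that the bright probes had the same upper quartile on each array (scaled intensity, in arbitrary units). Intensities of different probes are not set against each other. Values below 22.2 units (4.47 in log2), the lowest level at which probes were typically detected, were set to that floor before tests. With 12 arrays and no second array per pool, the number of pools limits every comparison. The tissue label was set beside 6 hepatocyte miRNAs, among them miR-122, and all 6 were detected on all 12 arrays. Of these, miR-802 lay at the floor on 2 arrays. Also detected on all 12 were 2 of 2 endothelial, 2 of 3 red-cell and 3 of 5 smooth muscle and stellate entries, and 0 of 5 bile duct entries. Detection thus does not single out hepatocytes.

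mmu-miR-142-3p, the pan-leukocyte arm, was the steadiest of the 4 detected entries. Its lowest scaled intensity was 248.6 at ZT42, its median 288.1 and its highest 330.9 at ZT50, with a mean of 288.9 ± 23.8 (SD, n = 12). The highest array thus stood 1.33-fold above the lowest, and neither the dark nor the light arrays formed a separate group. The coefficient of variation across arrays was 8.24%, against a typical standard error of 1.35% for the mean of 9 to 10 spots on 1 array. A second probe of miR-142-3p followed it across the arrays (r = 0.952, rho = 0.923, n = 12). Both probes share the scaling factor of their array, and the arrays hold different livers, so these values describe the spread and do not divide it.

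In order of time from ZT18 to ZT38, miR-142-3p measured 289.2, 312.9, 269.0, 289.7, 308.1 and 287.0. From ZT42 to ZT62 it measured 248.6, 285.9, 330.9, 310.7, 273.5 and 261.0. The array 2 h after lights on was the lowest of cycle 1 (ZT26) and the highest of cycle 2 (ZT50). Each is 1 pool, ZT26 on slide 1 and ZT50 on slide 2. A difference between mornings therefore cannot be told apart from one between pools or slides.

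mmu-miR-142-5p, the other arm of the same hairpin, was measured close to the detection limit. Its scaled intensity was lowest at ZT42 (21.3), had a median of 24.5 and was highest at ZT50 (39.6). It lay at the floor on 3 arrays, ZT26, ZT42 and ZT62. The share of spots well above background ranged from 0% at ZT58 to 100% at ZT38, although the software called the entry detected on all 12 arrays. The 2 probes of miR-142-5p tracked each other less closely than those of the 3p arm (r = 0.459, rho = 0.692, n = 12).

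The ZT50 value of miR-142-5p rests on few spots. Its 10 spots on that array spanned 13.1 to 86.5 units before scaling, with a median of 24.6, and 30% were well above background. Taken as the spot median, the scaled intensity at ZT50 was 25.96 in place of 39.6. The second probe, at 22.8 units before scaling, did not show the high value. Wide spot spread on this array was not particular to miR-142-5p. The coefficient of variation of spots was 67.4% for its brighter probe and 30.5% for its second. It was 67.9% for the second miR-146a probe and 141% for the brighter miR-150 probe. The median of all deposited values was also highest on the ZT50 array (4.12 units). Every comparison of miR-142-5p that involves this array carries that uncertainty.

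mmu-miR-223, the myeloid and neutrophil miRNA, ranged more widely than miR-142-3p and less widely than miR-142-5p. Its lowest scaled intensity was 95.4 at ZT62, its median 111.6 and its highest 134.3 at ZT34, with a mean of 114.4 ± 13.5 (SD, n = 12). The arrays at ZT18 (133.6), ZT30 (133.3) and ZT34 (134.3) stood highest, and all 3 belong to cycle 1 and hold both dark and light. The lowest arrays were ZT62 (95.4, dark), ZT26 (99.4, light) and ZT58 (100.7, light). Its second probe gave r = 0.8797 and rho = 0.881 with the first over 12 arrays.

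mmu-miR-146a, the NF-κB-induced miRNA, ran from 70.9 at ZT26 to 120.3 at ZT30, with a median of 89.2 and a mean of 89.7 ± 12.5 (SD, n = 12). The lowest and highest arrays were thus neighbours, 4 h apart in the same light phase. The remaining arrays lay between 76.1 (ZT22) and 99.5 (ZT38). The second miR-146a probe was at the floor on 9 arrays and had its highest mean at ZT50 (30.3), where its spots spanned 11.1 to 67.8 units before scaling and 30% were well above background. By the median of spots its highest array was ZT30 (24.9, with 100% of spots well above background), the same array as for the first probe, against 23.3 at ZT50. Over 12 arrays the 2 probes gave r = 0.680 and rho = 0.867.

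**Figure D1:**
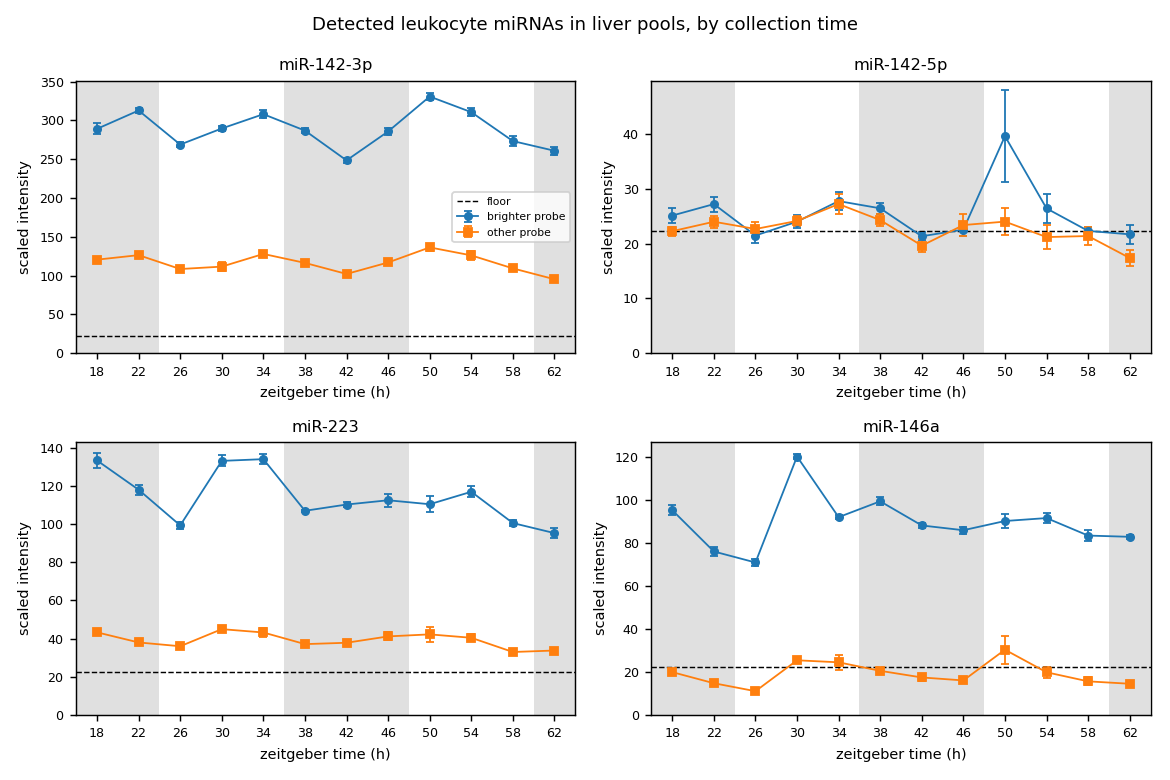
Scaled intensity (linear axis, arbitrary units) of the 4 detected leukocyte miRNAs against zeitgeber time in hours, for the brighter and the other probe of each, 1 array per time. Points are means and bars standard errors over the spots of 1 array, grey marks the dark phase and the dashed line the floor of 22.2. miR-142-3p stays between 248.6 and 330.9, and the ZT50 value of miR-142-5p has a far wider spot error than its other values.

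Set beside the other entries, the spread over the 12 arrays was on the large side for miR-223, miR-146a and miR-142-5p. That of miR-142-3p was nearer the middle. The SD in log2 units was 0.12 for miR-142-3p, more than that of 64 of the 109 tested entries never at the floor. For miR-223 the SD was 0.17 (above 89 of 109), for miR-146a 0.19 (above 97 of 109) and for miR-142-5p 0.24 (above 102 of 109). The median SD of those 109 entries was 0.10. The miR-142-5p value includes arrays at the floor and the ZT50 array, and that entry is not itself among the 109. The entries compared were not matched for intensity. These are descriptions of arrays that differ in time, cycle and slide together.

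The remaining 3 leukocyte miRNAs were called detected on no array. At ZT62, 10% of the spots of the brighter miR-146b probe were well above background. mmu-miR-155, the activation-induced miRNA, had scaled intensities of its brighter probe between -0.633 (ZT62) and 3.97 (ZT42), with a median of 3.03. mmu-miR-150, the lymphocyte miRNA, lay between 3.21 (ZT18) and 9.76 (ZT58), with a median of 7.10. All 12 arrays of each were below the floor of 22.2 units, in the dark and in the light.

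mmu-miR-146b, which shares the seed of miR-146a, ranged from -0.326 (ZT30) to 8.79 (ZT62) with a median of 1.39. Its probes therefore stayed below the floor on the same arrays on which miR-146a measured 70.9 to 120.3, and the 2 differ by G18A and U21C. No fold is given between them, since they are measured by different probes. For these 3 entries the arrays set only an upper bound at the floor, and a change in level over the day was not detectable.

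**Figure D2:**
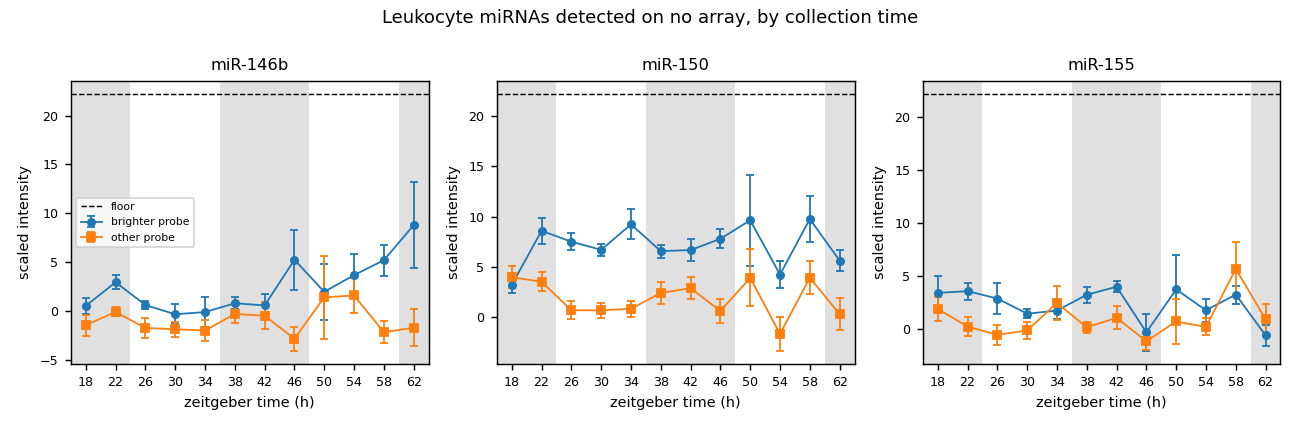
Scaled intensity (linear axis, arbitrary units) of miR-146b, miR-150 and miR-155 against zeitgeber time in hours, for both probes of each, 1 array per time. Points are means and bars standard errors over spots, grey marks the dark phase, and every point lies below the dashed floor of 22.2 units.

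The first comparison asked whether any of these miRNAs follows a 24-h rhythm. None of the 4 tested entries passed the test at an adjusted p under 0.05, and neither did any other entry (0 of 139, 0%). At an unadjusted p under 0.05 the count was 0 of 4, beside 5 of 139 entries (3.6%). miR-142-3p had a fitted peak-to-trough fold of 1.12, with an upper 95% limit of 1.34 and its peak 3.63 h after lights on (limma, adjusted p = 0.957). The fitted curve of miR-146a spanned 1.15-fold (upper limit 1.57) and peaked 9.85 h after lights on, and that of miR-223 spanned 1.04-fold (upper limit 1.39). Their adjusted p-values in limma were 0.957 and 1. miR-142-5p had a fold of 1.17, and no upper limit is given because 3 arrays were at the floor. These limits hold only for the main processing. Under normexp the fitted folds were 1.66 for miR-146a and 1.47 for miR-223, both above the limits just given, and 1.23 for miR-142-3p and 1.76 for miR-142-5p, with 0 of the 4 passing. The median fold was 1.14 over the 4 entries and 1.08 over all 139.

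A cosine misses patterns of other shapes, so the 6 clock times were also compared freely. Again 0 of the 4 entries passed, with 0 of 139 (0%) at an adjusted p under 0.05, and 0 of 4 beside 6 of 139 (4.32%) at an unadjusted p under 0.05. miR-146a had the widest span between clock-time means by the main scaling, 1.31-fold. Its mean log2 level was highest 6 h after lights on (6.71 ± 0.28, SD, n = 2) and lowest 2 h after lights on (6.32 ± 0.25, n = 2). The ZT30 array makes most of that peak: its partner 24 h later, ZT54, measured 91.6 against 120.3, and without ZT30 the span was 1.15-fold. The spans were 1.24-fold for miR-223, 1.26-fold for miR-142-5p and 1.12-fold for miR-142-3p. Adjusted p-values (limma) lay between 0.805 and 0.927. The spans moved with the processing: under normexp they were 2.63-fold for miR-142-5p, 2.03-fold for miR-223, 1.99-fold for miR-146a and 1.43-fold for miR-142-3p. With all-probe scaling they were 1.29-fold, 1.82-fold, 1.86-fold and 1.65-fold in the same order, and 0 of the 4 passed either way.

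The 2 arrays of a clock time also differ in cycle and, for 4 of the 6 times, in slide. The median gap between such partners was 0.15 log2 units for miR-142-3p, 0.18 for miR-223, 0.22 for miR-146a and 0.26 for miR-142-5p. miR-223 at 10 h after lights on, for instance, measured 100.7 in cycle 2 against 134.3 in cycle 1.

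The second comparison set dark against light, the phases in which mice are mostly active and feeding and mostly at rest. All 4 entries averaged slightly lower in the dark, and none passed the test (0 of 4, beside 0 of 139 entries, 0%, at an adjusted p under 0.05). At an unadjusted p under 0.05, 0 of the 4 were lower or higher, beside 8 of 139 lower (5.76%) and 3 of 139 higher (2.16%), 7.91% in either direction. The median dark minus light difference was -0.06 log2 units over the 4 and -0.02 over all 139, of which 92 were lower in the dark.

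miR-142-3p had a scaled intensity of 248.6 at the lowest, 286.4 at the median and 312.9 at the highest in the dark, against 269.0, 298.9 and 330.9 in the light. The groups overlapped, and 5 of 6 dark arrays lay below the light mean. In log2 units it averaged 8.13 ± 0.12 in the dark and 8.21 ± 0.12 in the light (SD, n = 6 each). The difference of -0.08 equals a fold of 0.945 with a 95% interval of 0.856 to 1.04 (limma, adjusted p = 0.740). An exact two-sided permutation test gave p = 0.247. Within slide 1, which held ZT18 to ZT46, the difference was -0.02.

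miR-142-5p had a scaled intensity of 21.3, 23.8 and 27.2 (lowest, median, highest) in the dark, against 21.5, 25.2 and 39.6 in the light. Without the ZT50 array the ranges nearly coincide, since the next highest light value was 27.7. It averaged 4.60 ± 0.13 log2 units in the dark and 4.73 ± 0.31 in the light (SD, n = 6 each), a difference of -0.13 (limma, adjusted p = 0.740; exact permutation p = 0.431). The difference was -0.01 without ZT50 and 0.0040 within slide 1.

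miR-223 had a scaled intensity of 95.4, 111.5 and 133.6 (lowest, median, highest) in the dark, against 99.4, 113.8 and 134.3 in the light. The groups covered almost the same range. The log2 means were 6.81 ± 0.16 in the dark and 6.85 ± 0.19 in the light (SD, n = 6 each), a fold of 0.976 with an interval of 0.840 to 1.13 (limma, adjusted p = 0.974; exact permutation p = 0.734).

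miR-146a had a scaled intensity of 76.1, 87.1 and 99.5 (lowest, median, highest) in the dark, against 70.9, 91.0 and 120.3 in the light. The light arrays held both extremes, ZT26 and ZT30. The log2 means were 6.45 ± 0.14 in the dark and 6.50 ± 0.25 in the light (SD, n = 6 each), a fold of 0.970 with an interval of 0.817 to 1.15 (limma, adjusted p = 0.974; exact permutation p = 0.738). Without ZT30 the difference had the other sign, 0.04 log2 units. Within slide 1 it was -0.06 for miR-146a and -0.06 for miR-223.

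The size and direction of these small differences rested on the scaling of the arrays. Scaled on all probes, most of which carry no signal, the median of all entries itself moved to 0.38 log2 units higher in the dark, and the 4 entries to 0.35 (miR-142-3p), 0.12 (miR-142-5p), 0.39 (miR-146a) and 0.39 (miR-223). With the normexp background the median of all entries moved the other way, to -0.36, and the entries to -0.21 (miR-142-3p), -0.51 (miR-142-5p), -0.36 (miR-146a) and -0.33 (miR-223). Set against the median, miR-142-5p was lower in the dark under both alternatives, which keep the ZT50 array and values close to the floor. By the main scaling its difference was -0.014 without ZT50. With spot medians it was -0.011, beside a median of all entries of -0.017. miR-142-3p lay below the median with all-probe scaling and above it with normexp, so its direction against the other entries was not fixed.

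**Figure D3:**
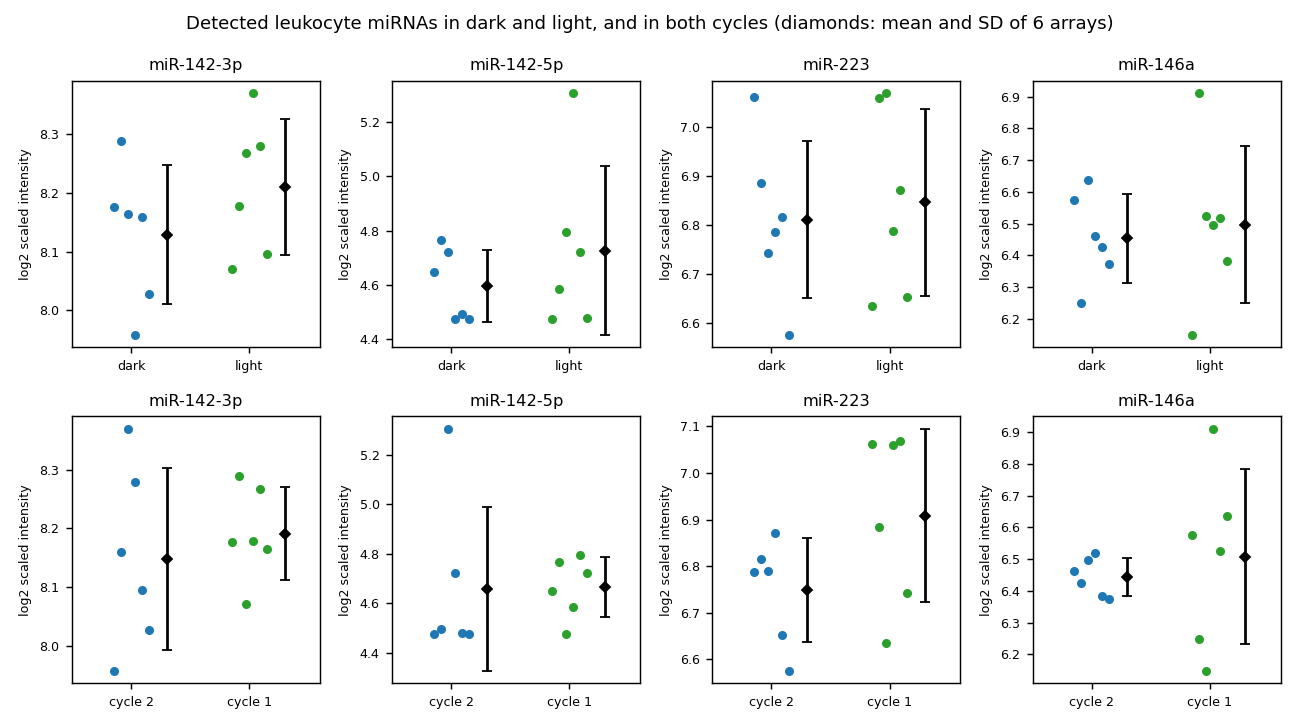
Log2 scaled intensity of the 4 detected leukocyte miRNAs, 1 point per array. The upper row sets dark beside light and the lower row cycle 2 beside cycle 1, with diamonds for means and bars for SD over 6 arrays. The groups overlap in all 8 panels, and miR-223 averages 6.75 in cycle 2 and 6.91 in cycle 1.

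The third comparison set the later against the earlier cycle within clock times, as a measure of a shift shared by the clock times. The largest mean difference among the 4 was that of miR-223, the neutrophil miRNA, which was lower in cycle 2 at 5 of 6 clock times. It did not pass the test. Its scaled intensity was 95.4, 110.5 and 117.1 (lowest, median, highest) in cycle 2, against 99.4, 125.8 and 134.3 in cycle 1. The ranges overlapped, although 4 of 6 cycle 1 arrays lay above every cycle 2 array. The difference was -0.16 log2 units, a fold of 0.895 with an interval of 0.788 to 1.02 (limma, adjusted p = 0.866). By its p-value miR-223 ranked 7 of 139.

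The other 3 entries had smaller mean differences between cycles, in which gaps of opposite sign cancel. The median gap between partner arrays was 0.22 log2 units for miR-146a and 0.26 for miR-142-5p, above the 0.18 of miR-223. For miR-142-3p it was 0.15. The log2 mean of miR-142-3p was 8.15 ± 0.16 over the 6 cycle 2 arrays and 8.19 ± 0.08 over the 6 cycle 1 arrays (SD), and the fold was 0.971 with an interval of 0.852 to 1.11. For miR-142-5p the means were 4.66 ± 0.33 in cycle 2 and 4.66 ± 0.12 in cycle 1. For miR-146a they were 6.44 ± 0.06 in cycle 2 and 6.51 ± 0.28 in cycle 1, which is a fold of 0.957 with an interval of 0.798 to 1.15. The spread of miR-146a within cycle 1 came from ZT26 and ZT30, and the cycle 2 arrays lay between 82.9 and 91.6 units.

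Over all entries 0 of 139 (0%) passed at an adjusted p under 0.05, and 5 of 139 (3.6%) had an unadjusted p under 0.05, all of them higher in cycle 2. Of the 4 leukocyte entries, 0 were among those 5. The median difference was -0.05 log2 units over the 4 and 0.02 over all 139, of which 83 were higher and 50 lower in cycle 2. The 4 leukocyte entries were all lower by the main scaling, but miR-142-5p by only -0.0066, and all 4 were higher under the normexp background (0.0955 to 0.472).

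Cycle and slide were partly the same thing. The 8 arrays from ZT18 to ZT46 shared slide 1 and its scan, and the 4 from ZT50 to ZT62, all of cycle 2, shared slide 2. miR-223 averaged 105.9 units on slide 2 and 118.6 on slide 1. With slide as a block, which leaves the 2 clock-time pairs within slide 1, the cycle difference of miR-223 was -0.17, close to its value over all arrays. That of miR-142-3p was -0.17, that of miR-142-5p -0.22 and that of miR-146a 0.03. With background corrected by normexp instead, the median of all entries moved to 0.36 and miR-223 to 0.21, and with all-probe scaling the median moved to -0.50 and miR-223 to -0.69. The cycle differences of the other entries with all-probe scaling were -0.58 (miR-142-3p), -0.33 (miR-142-5p) and -0.60 (miR-146a), and the lowest adjusted p among the 4 in any alternative was 0.118 (limma). With normexp those entries were at 0.0955 (miR-142-3p), 0.472 (miR-142-5p) and 0.280 (miR-146a). Relative to the median of all entries, miR-223, miR-142-3p and miR-146a were lower in cycle 2 under both alternatives, and miR-142-5p was higher. This position thus does not single out miR-223.

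**Figure D4:**
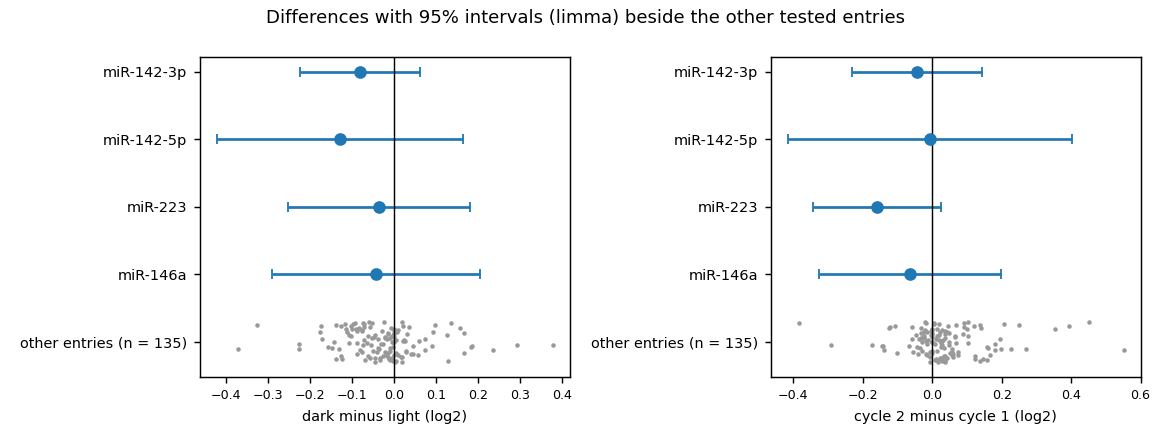
Dark minus light (left) and cycle 2 minus cycle 1 (right), in log2 units, for the 4 detected leukocyte miRNAs with 95% intervals from limma, above the same differences of the other tested entries as grey points. All 8 intervals include 0, and that of miR-223 between cycles ends nearest to it.

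The last question was whether these miRNAs move together from pool to pool. The entries never at the floor were compared over the 12 arrays with each other and with miRNAs of red cells (miR-451), endothelium (miR-126-3p), hepatocytes (miR-122) and smooth muscle (miR-143), 15 pairs in all. None of the 15 passed after Benjamini-Hochberg adjustment. miR-223 and miR-146a had r = 0.603 (permutation p = 0.0332, adjusted 0.467) and rho = 0.566 (p = 0.0583, adjusted 0.419). Without the 2 arrays farthest from the miR-223 median, ZT18 and ZT34, r was 0.655, and within the 8 arrays of slide 1 it was 0.610.

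miR-142-3p and miR-223 had r = 0.487 (permutation p = 0.109, adjusted 0.467) and rho = 0.650 (p = 0.0258, adjusted 0.388). Without ZT42 and ZT50, the arrays farthest from the miR-142-3p median, r was 0.719, and within slide 1 it was 0.550. miR-142-3p and miR-146a had r = 0.185 (p = 0.570) and rho = 0.336 (p = 0.286). Scaling is shared by all entries of an array, and the median r over all 5886 pairs of entries never at the floor was 0.184 (quartiles -0.065 and 0.427). After the median deviation of each array was taken off, r was 0.635 for miR-223 with miR-146a, 0.420 for miR-142-3p with miR-223 and 0.261 for miR-142-3p with miR-146a.

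miR-451, the red-cell miRNA and so a mark of blood left in the tissue, had r = 0.504 with miR-142-3p (p = 0.0949, adjusted 0.467, rho = 0.364). That relation rests on 2 arrays, since r was -0.009 without ZT42 and ZT50. With miR-223, miR-451 had r = -0.029 (rho = 0.014), and with miR-146a r = -0.252 (rho = -0.084). The part of residual blood in the leukocyte signals was not tested further. The 9 pairs with miR-122, miR-126-3p and miR-143 had r between -0.468 and 0.397 and rho between -0.524 and 0.441.

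The 2 arms of miR-142 are the pair with 1 precursor. Because miR-142-5p was at the floor on 3 arrays, they entered the comparison only when the floor was set 4 times lower, and then 1 of 22 pairs passed. The arms had r = 0.864 and rho = 0.916 over 12 arrays (permutation p = 8e-05, adjusted 0.00176 for each). Without ZT50 r was 0.897, without ZT42 and ZT50 it was 0.899, within slide 1 it was 0.869, and with spot medians it was 0.709. The miR-142-5p values used here include ones at which the probe was not well above background.

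**Figure D5:**
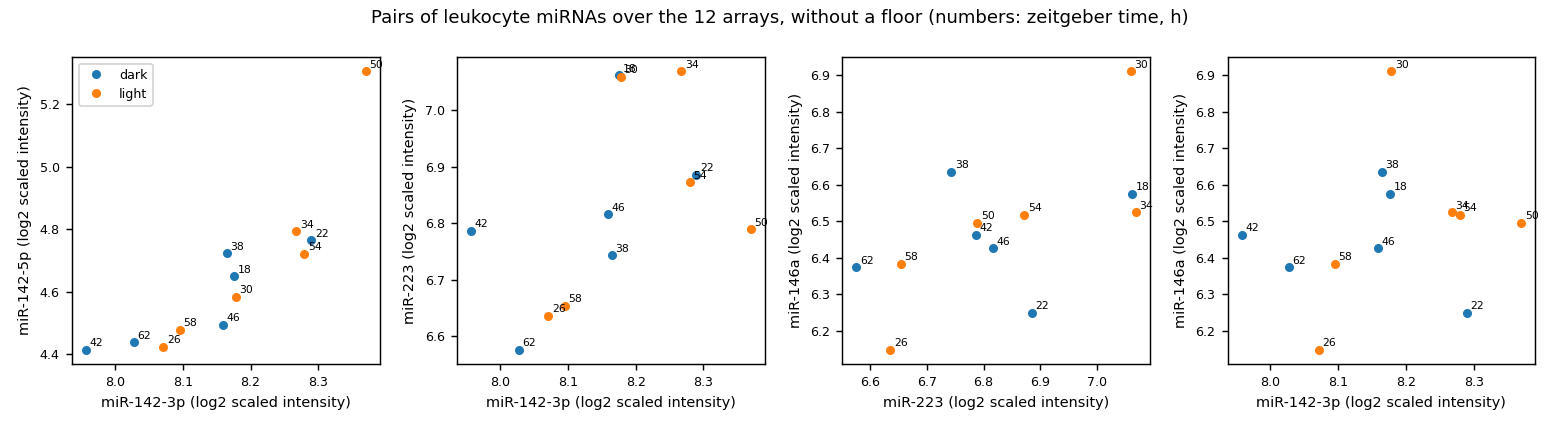
Log2 scaled intensity without a floor for 4 pairs of leukocyte miRNAs, 1 point per array, labelled with its zeitgeber time in hours and coloured by dark and light. The arms of miR-142 (first panel) lie along a line with ZT50 above it, while miR-142-3p and miR-146a (last panel, r = 0.185) show no such order.

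The entries with the most similar course to each member came from several marker lists or from none. Among 108 entries never at the floor, miR-142-3p was nearest by Pearson's r to miR-140 (0.728), let-7i (0.708) and miR-148b (0.622) over the 12 arrays. miR-223 came 18th for it, and miR-146a 58th. let-7i is on the wider list of immune cell or inflammation miRNAs described below. The ranking leaves out miR-142-5p for its arrays at the floor. With the lower floor the r of miR-142-5p with miR-142-3p was 0.864, above that of miR-140. For miR-223 the nearest were miR-34a (0.719), miR-30b (0.705) and miR-199a-3p (0.612), with miR-146a in 6th and miR-142-3p in 11th place. For miR-146a the nearest were miR-342-3p (0.665), an entry also abundant in lymphoid cells, then miR-223 (0.603) and miR-16 (0.585). With the median deviation of each array taken off, the order among the entries named here changed. The 108 entries were not ranked again. For miR-142-3p let-7i (0.685) then stood above miR-140 (0.657). The values for miR-223 were 0.679 for miR-34a, 0.635 for miR-146a, 0.568 for miR-199a-3p and 0.539 for miR-30b. Those for miR-146a were 0.699 for miR-342-3p, 0.698 for miR-16 and 0.635 for miR-223. These ranks are descriptions without a test.

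A wider list of 19 miRNAs of immune cells or inflammation, which holds among others miR-21, miR-342-3p and the miR-181 family, had 9 tested entries and 8 detected on no array. In the rhythm, clock-time, dark and cycle tests 0 of the 9 passed at an adjusted p under 0.05. In the dark 5 were higher and 4 lower than in the light, with a median difference of 0.00 log2 units. In cycle 2, 7 were higher and 2 lower than in cycle 1, with a median of 0.05, beside 83 higher and 50 lower of all 139 entries. Of the markers of other cells, 0 of 2 tested red-cell, 0 of 2 endothelial, 0 of 3 smooth muscle and stellate, 0 of 2 bile duct and 0 of 6 hepatocyte entries passed any of the 4 tests.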

How the data were processed

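Per the file headers, the deposited spot intensity of each one-colour (Cy3) array was background-subtracted and detrended by Agilent Feature Extraction. The headers name version 10.7.3.1, the submitters' processing notes 9.5.3.1. Extraction used TRIzol, per the labels' protocols. No build is given in the sources used here. The series value table differed by 0 from these intensities (column medians 0.661 at ZT30 to 4.12 at ZT50), so its scale is linear, uncentred and of known direction.

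Control spots and outlier flags (3.82% to 6.94% of spots) were removed (0 saturated), and spots of a probe averaged. Arrays were scaled to the 75th percentile of the 157 probes detected everywhere (over 50% of spots well above background; factors 0.867 to 1.10), floored and log2-transformed. The probe with the highest mean represented each miRNA.

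Tests used limma 3.58.1 (R 4.3.3) with an intensity-dependent variance prior and Benjamini-Hochberg adjustment over 139 entries. The rhythm test fitted 24-h cosine and sine terms (F test), and the cycle model held clock time. Correlations used 100000 resamples. The limma tests were checked on simulated data with independent noise, which held no slide effect, floor or error shared within an array. Alternatives covered scaling, background, probes, floor, filter, slide and each array left out. The normexp alternative (offset 50) used median spot signals, the signal column read from the files, in place of means. The named entries were the 7 members, the 3 nearest entries of each and 4 markers of other cells. Members and lists were chosen with earlier results of these data known.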

Additional observations from a re-analysis of the deposited data

Results flagged for a closer look

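The dark minus light difference of miR-142-5p had opposite signs in the 2 cycles. It was -0.3551 log2 units in cycle 2, with 3 of 3 dark arrays below the light mean, and 0.0954 in cycle 1, with 3 of 3 dark arrays above it. A lights by cycle term, added after the values were seen, gave a difference of -0.45 (95% interval -1.02 to 0.12; limma, adjusted p = 0.951). No entry passed for this term (0 of 139, with 3 of 139, 2.16%, at an unadjusted p under 0.05 and 0 of the 4 leukocyte entries among them). The difference was -0.22 without ZT50 and -0.06 with the median of spots in place of their mean, and 3 of the 12 values lay at the floor. In cycle 2 the light arrays ZT50, ZT54 and ZT58 were on slide 2, and the dark arrays ZT42 and ZT46 on slide 1. Lights and slide are thus largely confounded in that cycle, for both arms of miR-142. With slide as a block the difference was -0.46, where ZT62 is the only dark array on slide 2. miR-142-3p, the other arm, had dark minus light differences of -0.2002 in cycle 2 and 0.0377 in cycle 1 (limma, interaction, adjusted p = 0.951). No array stood apart from its group by Dixon's ratio of gap to range, the highest being 0.616 for miR-142-5p at ZT50, against a critical value of 0.625 for 6 arrays.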

How the results depend on the processing

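The count of leukocyte entries passing the rhythm, clock-time, dark and cycle tests was 0 under every alternative run. Directions of the small differences did change. Dark minus light, scaling on all probes gave 0.348 for miR-142-3p, 0.117 for miR-142-5p, 0.386 for miR-146a and 0.394 for miR-223 (median of all entries 0.38), and no scaling gave 0.0175 for miR-146a and 0.0258 for miR-223 (median 0.03). Slide 1 alone gave 0.0040 for miR-142-5p. With each array left out, miR-146a ran from -0.113 to 0.0395 and miR-223 from -0.0851 to 0.0121. Cycle 2 minus cycle 1, normexp gave 0.0955 for miR-142-3p, 0.472 for miR-142-5p, 0.280 for miR-146a and 0.211 for miR-223 (median 0.36), and slide as a block or slide 1 alone gave 0.0325 for miR-146a. With each array left out, miR-142-5p ran from -0.174 to 0.0551 and miR-146a from -0.146 to 0.0018. Of the correlations, 15 of 15 passed with all-probe scaling, 9 of 15 with normexp and 1 of 22 with the lower floor. The 15 and the 9 include pairs with miR-451, miR-126-3p, miR-122 or miR-143, so they do not single out the leukocyte entries. No median r over all pairs of entries was computed for these settings. With all-probe scaling r was 0.965 (miR-142-3p with miR-223), 0.930 (miR-142-3p with miR-146a) and 0.955 (miR-223 with miR-146a), and with normexp 0.926, 0.895 and 0.980. The cause was not tested. The test of all entries with the intensity-dependent prior could not be fitted, since many entries were at the floor on every array, and one prior was used there. That setting, the software's total gene signal, the spot median and the lights by cycle term were chosen after seeing the data. Signal over background limits miR-142-5p and the 3 undetected entries.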
